A study of Caenorhabditis elegans with 2 samples.

Results

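The genes described here encode the subunits of the proteasome, the complex that degrades proteins marked with ubiquitin. They are the nuclear protein-coding genes of Caenorhabditis elegans whose symbol starts with pas-, pbs-, rpt- or rpn-, which gave 33 of 19973 genes. The rule uses symbols and no measured value. Binding of CND-1, a NeuroD-family basic helix-loop-helix (bHLH) protein, was mapped by chromatin immunoprecipitation and sequencing (ChIP-seq). Whole embryos of mixed stage and mixed sex, obtained by egg bleaching and labelled as 3 hours old, came from strain OP349. Its labelled genotype is unc-119(ed3) III with the transgene wgIs349, a stably expressed CND-1 fusion whose C-terminus bears GFP and FLAG, and GFP was the target of the antibody. The tagged copy is a transgene, and cells that express it were not separated from other cells of the embryo. Both biological replicates have this genotype and no treatment, so the design holds 1 group and no comparison between conditions. In whole embryos, binding in few cells and weak binding in many cells cannot be told apart.

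The proteasome has a 20S core made of rings of alpha subunits (pas- genes) and beta subunits (pbs- genes), the latter including the proteolytic sites. A 19S cap of ATPases (rpt- genes) and non-ATPase subunits (rpn- genes) recognises, unfolds and feeds in ubiquitinated proteins. All dividing and differentiating cells need the complex, and in C. elegans the transcription factor SKN-1 is known to raise the expression of its genes when proteasome activity drops. Proteins of the bHLH class bind E-boxes, sites of the form CANNTG.

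The authors deposited 4 lists of regions, each region with a summit and a signal, the peak caller's own enrichment value with no stated scale. The thresholded list holds 1940 nuclear peaks and is the strongest part of the pooled list. The pooled list and the 2 replicate lists hold 30000 regions each, peaks together with background, and their weakest nuclear signals were 31.72, 17.84 and 18.14. A rank of 1 is the strongest nuclear region of a list. A gene is said to have a summit when one falls in the window around a transcript start of that gene, 1500 bp on the upstream side and 500 bp on the downstream side. Sequencing depth is unknown from such lists, and intervals below are 95% exact (Clopper-Pearson) intervals that cover the counting of genes alone.

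The sequences below lie at the strongest summits of rpn-7, rpt-6, rpn-3 and rpt-1. Of these genes rpn-7 and rpt-6 had thresholded peaks, while rpn-3 and rpt-1 were among the members with the strongest regions below the threshold. The thresholded peaks of pbs-5 and pbs-4 were stronger than those of rpn-7 and rpt-6 and are not shown. The region of pas-5, stronger than that of rpt-1, is not shown either. The sequences printed are therefore a selection, and neither all nor the strongest of the thresholded members. Each runs 5′ to 3′ on the strand of the named gene over the 100 bp centred on the summit (WBcel235, the assembly called ce11 in the labels). The rpn-7 window is trimmed to 87 bases to leave out an annotated untranslated region of a neighbouring gene. The rpt-6 window is not trimmed and holds 7 annotated coding bases, and it begins within the neighbouring gene his-72, which reaches position 12369050.
rpn-7, chrIV:9316216-9316302, plus strand: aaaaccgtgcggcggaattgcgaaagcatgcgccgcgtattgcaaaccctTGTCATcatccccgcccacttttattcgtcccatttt
rpt-6, chrIII:12369029-12369128, plus strand: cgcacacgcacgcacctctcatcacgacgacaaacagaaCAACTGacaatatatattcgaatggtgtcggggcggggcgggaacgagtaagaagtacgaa
rpn-3, chrIII:8447105-8447204, plus strand: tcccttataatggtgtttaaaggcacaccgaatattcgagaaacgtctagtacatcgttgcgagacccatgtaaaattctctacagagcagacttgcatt
rpt-1, chrV:11982460-11982559, minus strand: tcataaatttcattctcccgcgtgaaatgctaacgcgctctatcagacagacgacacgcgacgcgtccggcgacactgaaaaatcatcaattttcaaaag
Capitals mark the E-box CAACTG at rpt-6 and, at rpn-7, TGTCAT, a core of the SKN-1 site. The other 2 windows hold neither an E-box nor TGTCAT or TATCAT on either strand.

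The interval of the share of proteasome genes with a thresholded CND-1 peak held the share of all genes. Most of the peaks at members lay closer to the start of another gene. Summits were present at pbs-4, pbs-5, rpn-7 and rpt-6, which is 4 of 33 genes (12.1%, interval 3.40 to 28.2). The same count over all protein-coding genes was 1474, or 7.38%, which lies inside that interval. By subcomplex the counts were 0 of 7 alpha genes, 2 of 7 beta genes, 1 of 6 ATPase genes and 1 of 13 non-ATPase genes. All 4 peaks were among the stronger 982 of the thresholded list.

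The strongest of them was assigned to pbs-5, which encodes the beta subunit with the chymotrypsin-like site. Its peak (chrI:14721546-14721731, 186 bp wide) had a signal of 331.04 and rank 193 in the pooled and thresholded lists, 185.87 and rank 129 in replicate 1, and 147.54 and rank 274 in replicate 2. The summit lay 1160 bp upstream of pbs-5, inside the body of K05C4.2, a gene on the same strand that ends 111 bp before pbs-5. An internal transcript start of K05C4.2 was nearer, at 282 bp. The summit window held no E-box. A second, weak pooled region (signal 55.69) lay 488 bp upstream of pbs-5.

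At pbs-4, another beta subunit gene, the peak had no competing gene. It lay 616 bp upstream of the start in intergenic sequence (chrI:3907933-3908328) with a signal of 246.52 and rank 349. Replicate 1 gave 117.73 (rank 365) and replicate 2 gave 122.29 (rank 420), with summits 6 and 15 bp away. This was the 1 thresholded summit of the 4 whose nearest protein-coding start was that of the proteasome gene. Its 100 bp window held 1 E-box, CAGATG, and no E-box of this form was in the windows of the other 3.

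The peak summits of rpn-7 and rpt-6 lay in intergenic stretches shared with a divergent neighbour, and at the neighbour's end of them. For rpn-7, which encodes a subunit of the 19S lid, the signal was 177.79 (rank 711), with 83.56 (rank 758) and 91.18 (rank 761) in replicates 1 and 2. The summit (chrIV:9316055-9316450) lay 378 bp upstream of rpn-7 and 38 bp upstream of F49C12.9. For rpt-6, a 19S ATPase, the signal was 155.11 (rank 911), with 78.55 (rank 881) and 91.06 (rank 763) in the replicates. That summit (chrIII:12368881-12369276) lay 1377 bp upstream of rpt-6 and 29 bp upstream of his-72, which encodes a histone of the H3.3 type. A separate weak region 191 bp upstream of rpt-6 had a pooled signal of 52.15. No tRNA, snoRNA or snRNA gene was found within 100 bp of any of the 4 summits.

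**Figure D1:**
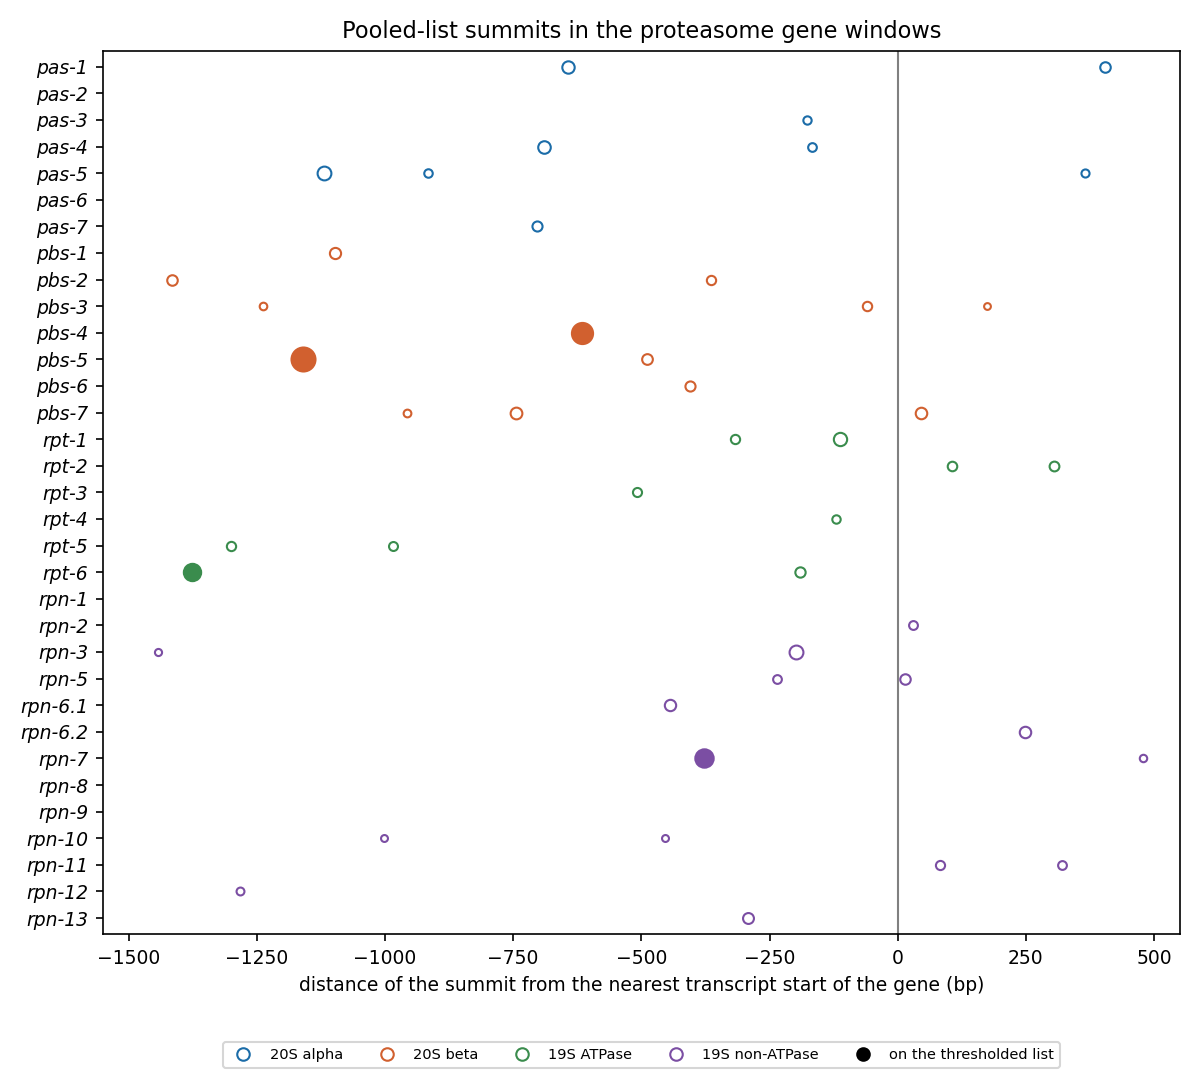
Distance in bp from each summit of the pooled list to the nearest transcript start of the proteasome gene whose window holds it (x axis, 0 is the start, negative is upstream), 1 row per gene, coloured by subcomplex. Circle diameter grows with signal and filled circles are thresholded peaks, which stand at pbs-5, pbs-4, rpn-7 and rpt-6 and lie 378 to 1377 bp upstream.

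The gene rpn-8, for a lid subunit that pairs with the deubiquitinase RPN-11, had a thresholded peak with its summit just outside the window. The summit of this peak (chrI:4175778-4176173, signal 133.01, rank 1228) lay 657 bp downstream of the start, in an intron of rpn-8. Part of that peak reached into the window, while its summit did not. The summit ranked 1082 in replicate 1 and 1498 in replicate 2, and it lay in the window of mrps-6, the divergent neighbour.

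Replicate 2 reached more members than replicate 1 when each list was limited to its 1964 strongest regions. Replicate 1 gave the same 4 genes, pbs-4, pbs-5, rpn-7 and rpt-6 (12.1%, interval 3.4 to 28.2), against 7.18% of all genes. Replicate 2 gave 6 genes (18.2%, interval 6.98 to 35.5), adding pas-5 and rpn-3, against 7.18% of all genes. Both intervals overlapped and held the share of all genes. At pas-5, an alpha subunit gene, the summit 1119 bp upstream had a signal of 63.19 (rank 1562) in replicate 2 and 27.81 (rank 11704) in replicate 1. It lay within 100 bp of the snoRNA gene F25H2.15. At rpn-3, a lid subunit gene, the summit had 74.75 (rank 1112) in replicate 2 and 33.94 (rank 6613) in replicate 1. Its pooled signal was 93.95 at rank 2351, 198 bp upstream of rpn-3 in the 444 bp gap shared with the divergent chaperone gene hsp-110, and nearer to rpn-3.

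Weak regions were common at proteasome genes. In the pooled list of 30000 regions 28 of 33 genes had a summit (84.8%, interval 68.1 to 94.9), against 50.2% of all protein-coding genes. Replicate 1 gave 27 genes (81.8%, interval 64.5 to 93.0) against 51.1%, and replicate 2 gave 31 genes (93.9%, interval 79.8 to 99.3) against 50.1%. Both replicate lists held a summit for 25 genes (75.8%, interval 57.7 to 88.9), against 37.6% of all genes. Every beta gene (7 of 7) and every ATPase gene (6 of 6) had a summit in each of the 3 lists. The 5 genes with none in the pooled list were pas-2, pas-6, rpn-1, rpn-8 and rpn-9, of which rpn-9 had one in both replicate lists. Their nearest pooled summits lay downstream of the start, at 502 bp for rpn-1 (signal 34.35) and 613 bp for pas-2 (66.66). The distances were 657 bp for rpn-8 (133.01), 1080 bp for pas-6 (50.31) and 2436 bp for rpn-9 (36.56).

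The strength of these regions was spread over the whole list, with 16 of the 28 within rank 10000 and 12 beyond it. The strongest pooled region had a rank within 1940 for 4 genes, from there to 5000 for 5, to 10000 for 7, to 20000 for 8 and beyond 20000 for 4. The corresponding shares, from 12.1% and 15.2% to 21.2%, 24.2% and 12.1%, stood beside 7.38%, 7.97%, 9.27%, 14.3% and 11.2% of all genes. Among genes with a region the median signal of the strongest was 55.97 for proteasome genes and 52.70 for all genes. Since the 30000 regions include background by their own label, a summit in them is not a called peak.

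**Figure D2:**
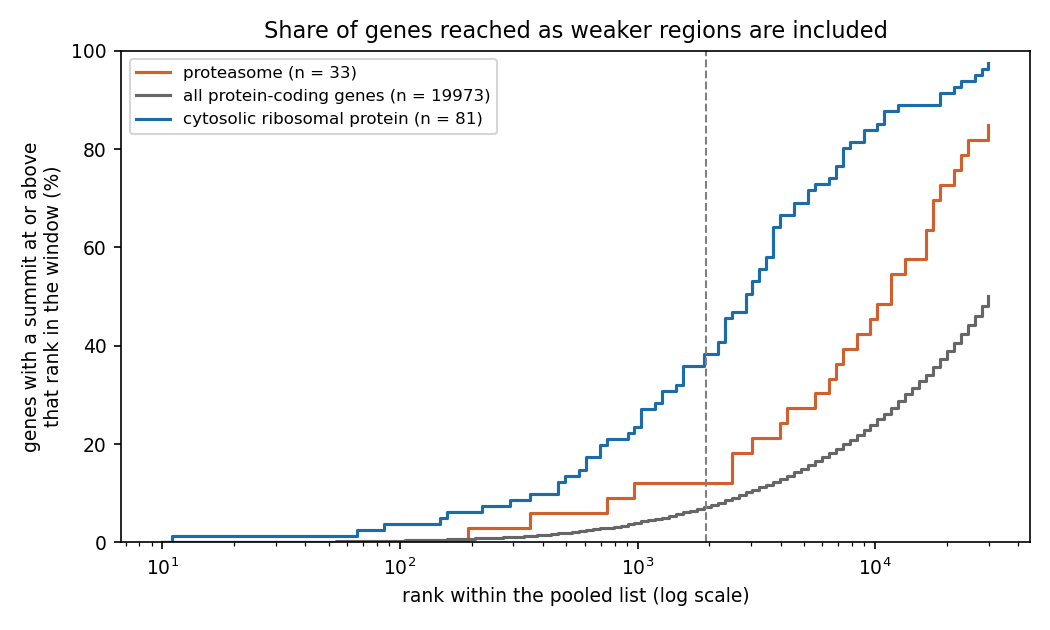
Percentage of genes with a summit in the window at or above a given rank (y axis) against rank in the pooled list (x axis, log scale), for proteasome genes, cytosolic ribosomal protein genes and all protein-coding genes. At the dashed line, rank 1940, the shares were 12.1%, 38.3% and 7.38%, and at the end of the list they were 84.8%, 97.5% and 50.2%.

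The spacing and orientation of the neighbouring genes are given beside these counts. The median gap to the upstream protein-coding neighbour was 416 bp for proteasome genes and 941 bp for all genes, and it was within 1500 bp for 32 of 33 members (97.0%) and 61.9% of all genes. The neighbour was divergent for 23 members (69.7%) and for 46.3% of all genes. Among genes with a divergent neighbour within 1500 bp, 17 of 22 members (77.3%) and 57.5% of all genes had a pooled summit. With a neighbour on the same strand within 1500 bp the values were 10 of 10 members and 49.8% of all genes. Thresholded summits were found for 2 of the 22 divergent members (9.09%) and 11.2% of such genes. They were found for 1 of the 10 members with a same-strand neighbour and 5.01% of such genes. The part of gene spacing in these shares was not tested.

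Many of the summits also counted for another gene. Of the 28 strongest pooled summits at members, 20 (71.4%) also lay in the window of another protein-coding gene, as did 37.0% over all genes with a summit. The member's own start was the nearest for 15 of 28 (53.6%), against 76.3% over all genes. For thresholded summits the corresponding values were 1 of 4 (25.0%) and 71.6%. By location 17 of the 28 summits were in promoters (500 bp upstream to 100 bp downstream of any protein-coding start), 7 in coding exons, 2 in intergenic sequence, 1 in an intron and 1 in a 3′ UTR. Over all nuclear pooled regions promoters held 18.5% and coding exons 29.1%, and the window around starts favours promoters by construction.

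Among the alpha genes, which form the outer rings that gate the core, the strongest pooled regions were at pas-5 (signal 92.87, rank 2393), pas-4 (76.08, rank 3830) and pas-1 (73.84, rank 4124). The summit of pas-4 lay 689 bp upstream in a coding exon of the divergent gene rpb-3, for an RNA polymerase II subunit. That of pas-1 lay 643 bp upstream and 43 bp from the start of rpoa-12, a gene on the same strand. At pas-4 the signals were 24.37 in replicate 1 and 47.77 in replicate 2, and at pas-1 they were 22.59 and 49.20. The signal has no stated scale, so ranks are the safer comparison between replicates. At both genes and at pas-5 the rank was better in replicate 2 (2887 against 16123 at pas-4, 2674 against 19157 at pas-1). The remaining pooled signals were 50.37 at pas-7, in a coding exon of puf-12, and 38.20 at pas-3, 21 bp from the start of use-1. The median of all nuclear pooled regions was 45.32, between these values.

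Among the beta genes, pbs-7 (signal 66.44, rank 5502) and pbs-1 (60.65, rank 7001) followed the thresholded pair. The summit of pbs-7 lay 745 bp upstream in a coding exon of F39H11.1, and a second pooled region of nearly the same strength (64.16) lay 46 bp downstream of its start. At pbs-1, for the subunit with the caspase-like site, the summit was 1097 bp upstream and nearer to rpi-2. The gene pbs-2, for the subunit with the trypsin-like site, had signals of 54.26 at 1416 bp and 44.23 at 364 bp upstream. The stronger of these lay in a coding exon of the divergent gene eif-6 and was nearest to the start of gale-1. The gene pbs-6 had 50.60 at 406 bp upstream, 53 bp from the start of cids-1, and pbs-3 had 44.88 at 60 bp upstream. Of these strongest summits only that of pbs-3 lay within 100 bp of the beta gene's own start. The pbs-3 summit lay inside ulp-2, a gene on the same strand that ends 23 bp before pbs-3. Replicate 1 had a summit 11 bp from it, while the nearest summit of replicate 2 was 305 bp away.

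Among the ATPase genes rpt-1 had the strongest region below the threshold (signal 85.90, rank 2857), 113 bp upstream of its start and with no other gene's window over it. Replicate 1 gave 44.67 (rank 2983) and replicate 2 gave 40.12 (rank 4537) there, so both replicates placed it well above the median region, whose signals were 25.14 and 25.98. The other ATPase genes had pooled signals of 47.91 (rpt-2), 44.13 (rpt-5), 42.83 (rpt-3) and 38.68 (rpt-4). The strongest summit of rpt-2 lay in its own coding exon, 304 bp downstream of its start, and that of rpt-3 lay in a 3′ UTR of the upstream gene chtb-2. The strongest summit of rpt-5 lay 1300 bp upstream, in a coding exon of the divergent gene rad-8.

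Among the non-ATPase genes the next regions after rpn-7 and rpn-3 were at rpn-6.2 (signal 63.32, rank 6253), rpn-6.1 (62.17, rank 6539), rpn-13 (57.68, rank 8044) and rpn-5 (53.79, rank 9704). The summit of rpn-6.2 was 249 bp downstream of a start in an intron, and that of rpn-6.1, the paralogous lid subunit gene, lay inside the gene, 444 bp upstream of an internal start. At rpn-6.1 the replicates gave 29.75 and 30.27, while at rpn-6.2 they gave 38.84 and 18.45. The summit of rpn-13, a ubiquitin receptor gene, lay 291 bp upstream, and that of rpn-5, a lid subunit gene, 15 bp downstream. Signals were lower at rpn-11, the deubiquitinase gene (43.37), at rpn-2, for a scaffold of the cap (41.18), at rpn-12 (36.16) and at the ubiquitin receptor gene rpn-10 (32.54). The rpn-12 summit lay 1282 bp upstream, in a coding exon of the divergent gene rad-23. The rpn-10 value is close to the weakest region of the pooled list.

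**Figure D3:**
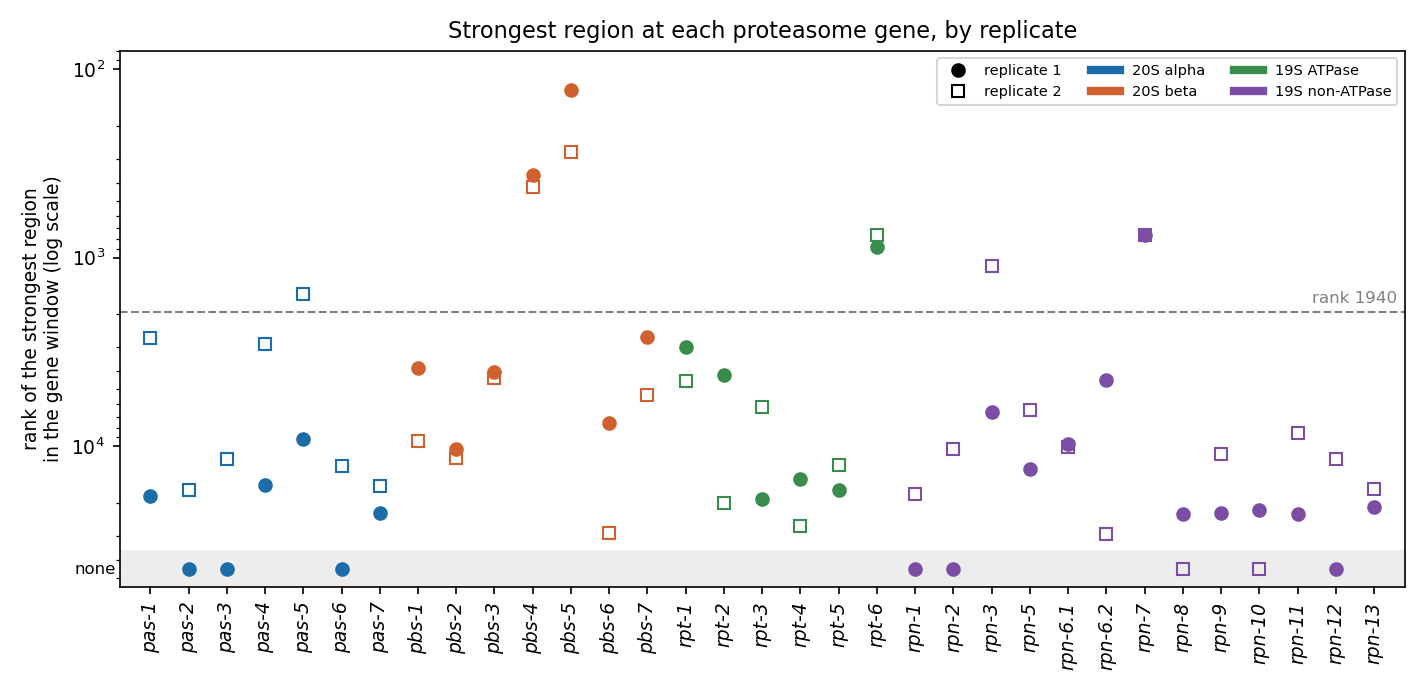
Rank of the strongest region in the window of each of the 33 genes (y axis, log scale, stronger towards the top) in replicate 1 (filled circles) and replicate 2 (open squares), coloured by subcomplex. Symbols in the grey band mark genes with no region in that list, and the dashed line is rank 1940, above which both replicates lie for pbs-4, pbs-5, rpt-6 and rpn-7.

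Each strongest pooled summit was looked for in the replicate lists. A summit of both replicate lists lay within 100 bp of the strongest pooled summit for 17 of 28 members (60.7%), and for 4906 of the 10017 protein-coding genes with a pooled summit. Over all nuclear pooled regions, whichever their place in the genome, the share was 35.4%. For 10 members 1 replicate had such a summit, and for rpt-2 neither had. All 4 thresholded summits were matched in both replicates, within 43 bp. Such a match was favoured by the making of that list, since the irreproducible discovery rate procedure keeps regions that agree between replicates. At the 17 matched summits, replicate 2 had the better rank in 9 and replicate 1 in 8, which was close to the 50.5% for replicate 2 over all pooled regions matched in both.

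**Figure D4:**
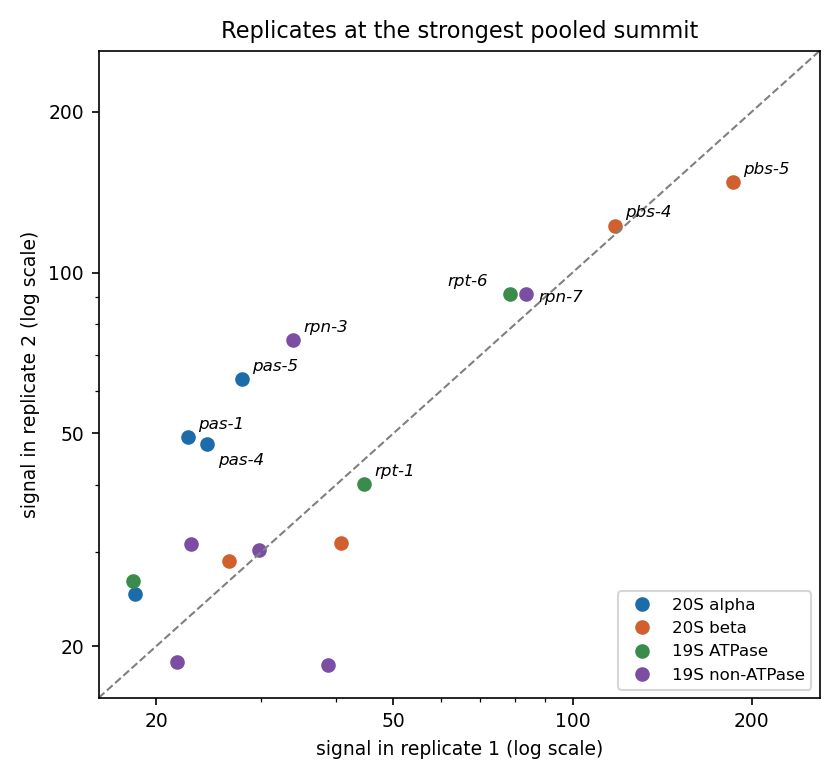
Signal of replicate 1 (x axis) and replicate 2 (y axis), both on log scales, at the 17 proteasome genes whose strongest pooled summit was matched within 100 bp in both replicate lists. The 4 genes with thresholded peaks lie at 78.55 or more in both replicates and near the dashed line of equal signal, and pas-1, pas-4, pas-5 and rpn-3 lie above it. The scale of the signal is not stated, so the line is a guide to the eye and does not mark equal binding.

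The share of proteasome summits with an E-box was near that of all summits. Of the 4 thresholded summits 2 had an E-box in the 100 bp window, CAGATG at pbs-4 and CAACTG at rpt-6, against 49.4% of the 1940 thresholded summits. Windows of the same width centred 300 bp to either side were also searched. Both sides together held 1 E-box each at pbs-4, pbs-5 and rpt-6, and 0 at rpn-7. The forms CAGATG and CAACTG occur in 17.4% and 6.75% of all thresholded summit windows, respectively. Of the 28 strongest pooled summits at members 11 had an E-box (39.3%), against 38.7% of all nuclear pooled summits. These included CAGATG at pas-4 and rpn-2 and CAGCTG at rpn-5. In the 300 bp promoter window from 250 bp upstream to 50 bp downstream, 22 of 33 members (66.7%) and 69.4% of all genes had an E-box. TGTCAT or TATCAT on either strand, a core of the SKN-1 site, was in 15 member promoters (45.5%) and 32.3% of all promoters. This core was in 1 of the 4 thresholded summit windows, that of rpn-7, and in 7.32% of all thresholded windows. At the 28 strongest pooled summits of members it was in 2 windows (7.14%), against 8.87% of all nuclear pooled windows. E-boxes and the SKN-1 core were searched on both strands. A match describes the letters alone and not a bound site.

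For other genes of the ubiquitin-proteasome pathway, too, the interval of the share with a thresholded summit held the share of all genes. Of 21 listed genes 3 had a thresholded summit (14.3%, interval 3.05 to 36.3, against 7.38% of all genes), and all 3 summits were nearest to the listed gene's own start. The strongest was 164 bp upstream of cdc-48.1 (signal 489.78, rank 68), an ATPase that extracts ubiquitinated proteins, and ranked 61 and 93 in the replicates. The polyubiquitin gene ubq-1 had a summit 138 bp upstream (signal 167.37, rank 781), and the ubiquitin chain elongation gene ufd-2 had one 247 bp upstream (signal 120.91, rank 1444). No thresholded summit was found for skn-1, nor for ddi-1 or png-1, whose products process SKN-1, nor for dss-1, a further cap subunit gene outside the naming rule. Cytosolic ribosomal protein genes (symbols rpl-, rps- or rla-) are set beside them as another large housekeeping complex. Of these 31 of 81 had a thresholded summit (38.3%, interval 27.7 to 49.7), and the strongest pooled summit lay within 500 bp upstream for 73.4% of those with one, against 35.7% for proteasome genes and 33.9% for all genes. The difference between the lists was not tested.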

How the data were processed

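Peak lists from ChIP-seq of 2 biological replicates were analysed. Per the deposited file descriptions, the authors made each 30000-region list from the alignments of 1 replicate, or of both for the pooled list, with a single control file, and derived the thresholded list with the irreproducible discovery rate procedure. The signal of each region is the authors' value, and the deposited −log10 q-values (at most 3.46 in the thresholded list) were not used to rank regions. Assembly ce11 is named per the labels. The sources used here do not name the peak caller or the aligner, nor the limit of the discovery rate.

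Summits were the region start plus the deposited offset. Genes and 29314 transcript starts came from protein-coding transcripts of Ensembl release 115 (WBcel235), and every nuclear region ended within that assembly's chromosomes. Mitochondrial regions were left out. Sequences came from the RefSeq copy of WBcel235. Counting was done with Python 3.11.15, pandas 2.3.3, numpy 2.4.6 and scipy 1.17.1, and the window rule was tested on simulated data. Members, lists and named genes were chosen with earlier results of these data known, so counts are descriptions with no test. All 33 members are accounted for, with full values for those with a thresholded summit. Alternatives changed windows, starts, lists and motif windows.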

Additional observations from a re-analysis of the deposited data

How the results depend on the processing

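The count of 4 genes with a thresholded summit (7.38% of all genes) rested on the width of the window. With 500 bp upstream and 250 bp downstream it was 1 gene, rpn-7, against 4.37% of all genes. It was 1 gene, pbs-4, when a summit counted only for its nearest start, against 5.36%. With 3000 bp upstream and 1000 bp downstream it was 6 genes, rpn-8 and rpn-13 being added, and the share of all genes was also higher, at 10.3%. Counting any part of a peak gave 5, with no share over all genes computed. The strongest 982 peaks gave 4 against 3.91% of all genes, removal of peaks near tRNA, snoRNA and snRNA genes 4 against 6.67%, and the most upstream start alone 4 against 6.83%. The count of 25 genes in both replicate lists (37.6% of all genes) was 13 with the narrow window and 15 with the nearest start, where the shares of all genes also fell, to 19.8% and 28.9%. Other settings, including each replicate list alone, stayed within 1.5 times. The pooled count of 28 (50.2%) was 19 with the nearest start (41.5%), 20 with the narrow window (30.7%) and 32 with the wide one (65.6%). Peaks with an E-box numbered 2 of 4 in each setting run except replicate 2 alone, where they were 2 of 6. The alternatives for the median signal of 212.15 kept the same 4 peaks, so they could not move it. Starts of all annotated transcripts, chosen after seeing the data, changed none of the 3 gene counts (4, 28 and 25). No paired analysis was possible because both replicates form 1 group. Depth is unknown and the control was not used, so an absent summit does not show absence of binding.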

Other observations

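The subunits of the cytosolic chaperonin, which folds actin and tubulin, are a smaller housekeeping complex. Of 8 cct- genes 4 had a thresholded summit (interval 15.7% to 84.3%, against 7.38% of all genes). They were cct-1 (228 bp upstream, signal 525.54, rank 52), cct-7 (302 bp, signal 226.60, rank 426), cct-8 (442 bp, signal 206.15, rank 526) and cct-5 (469 bp, signal 107.75, rank 1802). In each case the start of another gene was nearer, namely mig-5, T10B5.4, Y55F3AR.2 and F25F2.1. The cct-5 summit ranked 1278 in replicate 1 and 4024 in replicate 2.

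The alpha and beta subunit genes of the proteasome core differed in which replicate list ranked their strongest region better. For 7 of 7 alpha genes the strongest region in the window had the better rank in replicate 2, a gene with no region counting as lowest. Among these genes pas-2, pas-3 and pas-6 had no region in the window in replicate 1. For 7 of 7 beta genes the strongest region had the better rank in replicate 1. The ATPase genes divided 3 and 3, and of the non-ATPase genes 8 ranked better in replicate 2 and 5 in replicate 1. This grouping was noticed after the values were seen, most of these regions are weak, and the difference was not tested. No such count over all genes was made. At some genes the 2 replicates ranked different regions, as at pas-5 (360 bp upstream in replicate 1, 1119 bp in replicate 2). At the strongest pooled summit of pbs-2 the better rank was in replicate 2 (11553 against 13218). At pbs-3 the ranks were close (4039 and 4345).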
